A study of Mus musculus with 6 samples.

Results

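The potassium channel genes were taken as the protein-coding genes whose symbol starts with Kcn, leaving out Kcnj10, Kcnk2 and Kcnk4, and they came to 91 of the 21938 protein-coding genes of the mouse annotation used here. By their roles, 30 encode pore-forming subunits of voltage-gated (Kv) channels, 10 encode Kv modifier subunits, 14 inward rectifiers, 12 two-pore channels, 8 calcium- or sodium-gated channels and 17 auxiliary subunits. A peak was assigned to a gene when it overlapped the gene body or a promoter, defined as 2.5 kb on either side of any of the gene's transcription start sites (TSS), and a gene with a peak at a promoter is called marked. The rule uses gene names only, but the group was proposed with results of these data known.

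H3K27ac, an acetylated lysine of histone H3 that is found at active promoters and enhancers, was profiled by ChIP-seq in single bulk retinas of wild-type mice that were 3 months old at the first elevation of intraocular pressure (IOP). In the 4xIOP group, 1 eye of each animal was raised to 30 mmHg for 1 h on 4 occasions by hydrostatic pressure. The untreated fellow eyes of such animals formed the control group, so that controls too came from animals that had been through the procedure, and every retina was taken on day 2 from the last of these. There were 3 peak lists per group, and the comparison between them asked whether repeated mild pressure changes where this mark is found in young tissue. A treatment text that the labels repeat for every sample describes injections of dasatinib or of vehicle, and no label says whether any of these 6 retinas came from an injected animal. Nor do the labels say which control eye belonged to which pressured eye. In bulk tissue, fewer cells of a type and less acetylation per cell cannot be told apart.

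Potassium channels set the resting potential of a cell and bring it back after excitation. Kv channels open on depolarisation, inward rectifiers and two-pore channels pass current near rest, and calcium- and sodium-gated channels open when these ions build up inside the cell. Modifier subunits do not form channels alone but join pore-forming ones. In rods and cones, the modifier subunit Kcnv2 joins pore-forming subunits such as Kcnb2 in a channel that shapes the light response, and loss of the human KCNV2 gene causes a cone dystrophy with an altered rod response. In ganglion cells and other projection neurons, Kcna, Kcnc and Kcnq channels set firing threshold, spike width and repetitive firing.

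The sequences below are from marked promoters and gene bodies of members (GRCm38, RefSeq chromosome sequences). They were searched on both strands for TAATCC, the core of CRX and OTX sites, for TGCTGA, the core of sites of the rod factor NRL, and for TCAGCACC, one part of the site of the neuronal repressor REST. TCAGCACC contains TCAGCA, the reverse complement of TGCTGA, so a match to the longer motif is also a match to the shorter one. Capitals mark the matches. The first 2 are the 250 bases before a TSS, read along the gene, and are shown for their contrast in CpG dinucleotides. Kcnv2 (chr19:27322338-27322587, plus strand) holds 4 of them, and Kcnh2 (chr5:24351605-24351854, minus strand), read before the outer of its 2 TSS, holds 41.
Kcnv2 before the TSS: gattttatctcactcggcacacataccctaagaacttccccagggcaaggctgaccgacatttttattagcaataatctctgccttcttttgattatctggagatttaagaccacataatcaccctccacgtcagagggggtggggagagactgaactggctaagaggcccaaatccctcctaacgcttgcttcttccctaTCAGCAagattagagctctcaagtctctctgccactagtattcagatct
Kcnh2 before the outer TSS: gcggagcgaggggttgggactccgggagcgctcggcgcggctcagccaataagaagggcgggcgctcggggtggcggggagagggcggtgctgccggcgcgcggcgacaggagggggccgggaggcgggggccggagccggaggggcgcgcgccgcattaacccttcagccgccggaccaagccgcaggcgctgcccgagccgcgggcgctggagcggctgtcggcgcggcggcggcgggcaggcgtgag
The next 4 lie around the middle summit of a region found in all 6 lists and are written on the plus strand, without untranslated stretches: Kcnv2 (chr19:27322751-27323025), Kcnab2 (chr4:152477872-152478141), Kcnh6 (chr11:106013945-106014244) and Kcnab1 (chr3:65203734-65204033). The first 2 of these are promoter regions and the last 2 lie in gene bodies.
Kcnv2 summit: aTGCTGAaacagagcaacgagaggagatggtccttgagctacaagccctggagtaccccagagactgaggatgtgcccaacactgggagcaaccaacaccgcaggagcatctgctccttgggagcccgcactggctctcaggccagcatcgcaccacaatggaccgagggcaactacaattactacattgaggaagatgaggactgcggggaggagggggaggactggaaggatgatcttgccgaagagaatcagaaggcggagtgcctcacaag
Kcnab2 summit: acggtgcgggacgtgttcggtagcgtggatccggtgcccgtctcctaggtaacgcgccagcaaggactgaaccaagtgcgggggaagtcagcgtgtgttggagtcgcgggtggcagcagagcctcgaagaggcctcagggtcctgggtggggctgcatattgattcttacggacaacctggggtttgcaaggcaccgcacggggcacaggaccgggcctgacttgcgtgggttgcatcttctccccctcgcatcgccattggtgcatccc
Kcnh6 gene body: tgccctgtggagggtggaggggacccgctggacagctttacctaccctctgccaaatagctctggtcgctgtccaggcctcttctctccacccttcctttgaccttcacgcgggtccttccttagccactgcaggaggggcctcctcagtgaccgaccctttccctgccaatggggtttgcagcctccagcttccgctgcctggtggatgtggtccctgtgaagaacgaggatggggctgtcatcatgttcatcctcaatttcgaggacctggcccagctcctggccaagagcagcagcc
Kcnab1 gene body: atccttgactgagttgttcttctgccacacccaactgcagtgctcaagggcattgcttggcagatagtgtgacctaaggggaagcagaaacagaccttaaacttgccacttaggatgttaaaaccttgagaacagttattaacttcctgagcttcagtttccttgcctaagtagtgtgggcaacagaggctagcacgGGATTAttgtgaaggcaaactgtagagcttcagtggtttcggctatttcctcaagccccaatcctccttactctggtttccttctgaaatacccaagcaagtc
In these stretches TGCTGA was found before the Kcnv2 TSS and past it. The second match follows directly on an untranslated stretch and overlaps an ATG, so that it falls at the start of coding sequence. The Kcnab1 gene body held GGATTA, the reverse complement of TAATCC. Of the 12 regions at members that were found in all 6 lists, 2 held TAATCC, 3 held TGCTGA and 0 held TCAGCACC within 300 bases around the summit, against 4.31%, 16.3% and 1.75% of all 10529 regions found in all 6 lists.

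In replicate order, the control lists held 21893, 19913 and 36509 peaks and the 4xIOP lists held 20338, 20804 and 16195. Depth, given as the mean fragment background recovered from the lists, ranged from 87.4 to 173 fragments per 10000 bp and was 132 in control replicate 3, whose list was the longest. Each deposited list also has a name of its own, which fits the label in control replicate 3 and 4xIOP replicate 3 only and is that of the other group in the other 4 lists, so every direction below holds for the groups as labelled. Of 12 rod and cone marker genes, 8 or 9 were marked in each list, and of the markers of microglia (6 genes), pigment epithelium (5), endothelium and pericytes (5) and lens and cornea (5), 0 were marked in any list. Of 4 markers of skeletal muscle and liver, tissues outside the eye, 1, 1 and 2 were marked in the control lists and 0, 1 and 0 in the 4xIOP lists.

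Few potassium channel promoters carried the mark, except in 1 list. Marked members numbered 16, 11 and 52 in the control lists, in replicate order, and 17, 10 and 13 in the 4xIOP lists. In percent of the 91 members these are 17.6%, 12.1% and 57.1% in control and 18.7%, 11% and 14.3% in 4xIOP. Control replicate 3 thus stood far above the other 5 lists, which overlapped between the groups. Over all protein-coding genes the same 6 lists marked 48.6%, 46.2%, 56.9%, 47.4%, 45.7% and 44.6%, a much narrower span. Members were marked less often than genes at large in 5 lists and about as often in control replicate 3.

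The mean share of marked members was 28.9% ± 24.6 (SD, n = 3) in control and 14.7% ± 3.86 (SD, n = 3) in 4xIOP, a difference of -14.3 percentage points. Without control replicate 3 the difference was -0.183 percentage points, so that 1 list gave nearly all of it. Over all protein-coding genes it was -4.67 percentage points, and -1.48 without that list. Fragment length was inferred from the shortest peak of each list, with a cut at 200 bp. By this measure the lists fall into a class of longer fragments (control replicate 1, 4xIOP replicates 1 and 2) and one of shorter fragments. The difference for members was -2.75 points within the first and -20.3 points within the second, which holds control replicate 3. For all protein-coding genes it was -2.06 and -6.93 points. No test was run on these shares, because the group of genes was proposed with results of these data known.

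**Figure D1:**
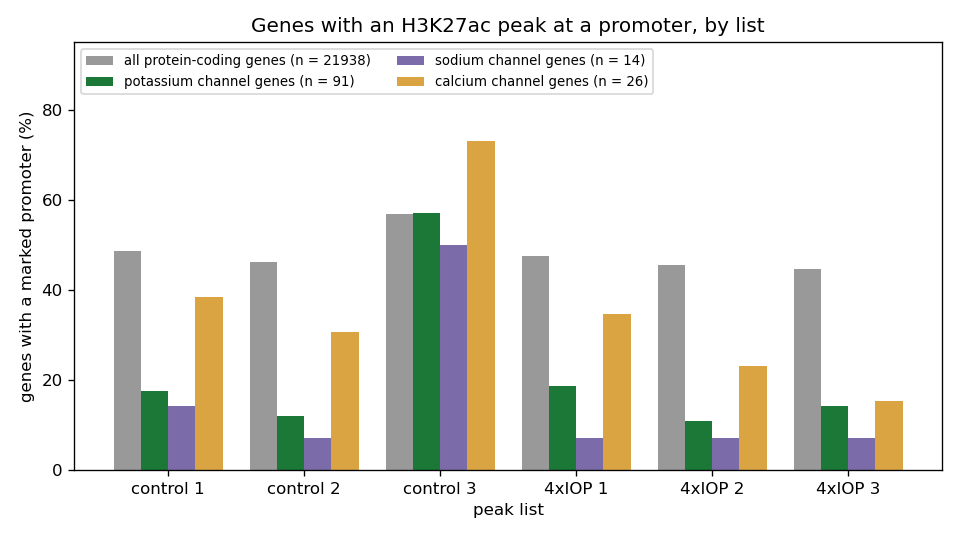
Share of genes (%, y axis) with an H3K27ac peak within 2.5 kb of a TSS in each of the 6 peak lists (x axis), for all 21938 protein-coding genes, the 91 potassium channel genes, 14 sodium channel genes and 26 calcium channel genes. Potassium channel genes stand at 11% to 18.7% in 5 lists and at 57.1% in control replicate 3, where all genes stand at 56.9%.

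In the other voltage-gated channel families control replicate 3 was again the highest list. Of 14 sodium channel genes, 2, 1 and 7 were marked in control replicates 1 to 3 and 1 was marked in each 4xIOP list. Of 26 calcium channel genes, the counts were 10, 8 and 19 in control and 9, 6 and 4 in 4xIOP. Without control replicate 3 the difference was -3.57 percentage points for sodium channel genes and -10.3 for calcium channel genes, and differences between families were not tested. Among 23 partner genes of potassium channels, 9, 7 and 16 were marked in control and 9, 9 and 8 in 4xIOP. Among the 7 partners marked in all 6 lists were Amigo1, a membrane partner of Kv channels, the sodium pump subunits Atp1b2 and Atp1b3, and the hyperpolarisation-activated channel Hcn2. Abcc8, a sulfonylurea receptor that joins Kcnj11, and Cntnap2 and Cntn2, which hold Kcna channels beside nodes of Ranvier, were marked in control replicate 3 only.

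No member was marked in all lists of 1 group and no list of the other. Over all genes, 0.36% were marked in all control and no 4xIOP lists and 0% the other way round. With the lists of longer fragments alone, 3 members (3.30%) and 1.99% of all genes were marked in control and no 4xIOP list, and with those of shorter fragments alone 1 member (1.10%) and 3.77% of genes. Between control replicate 3 and 4xIOP replicate 3, the lists whose own name fits the label, 39 members (42.9%) and 12.5% of genes were marked in control alone. Of the 52 members marked anywhere, 52 were marked in control replicate 3, 19 were marked in at least 1 list of each group, and 0 were marked in 4xIOP but in no control list. Of the 12639 protein-coding genes marked anywhere, these shares were 98.8%, 87.2% and 0.498%, so that presence in control replicate 3 was near the general share and presence in both groups (36.5% of the 52) was below it. Only Kcna2 and Kcnh5 were marked in a control list besides replicate 3 and in no 4xIOP list, both in control replicate 1.

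By number of lists, 9 members were marked in all 6 (9.89%, against 39.5% of all protein-coding genes), 12 in 2 to 5, 31 in 1 and 39 in none (42.9%, against 42.4% of all genes). All 31 members marked in a single list were marked in control replicate 3. They make up 34.1% of the members, while 1147 protein-coding genes, 5.23%, were marked in that list alone. In each of the other 5 lists 0 members were marked alone, where 0.0547% to 0.15% of protein-coding genes were.

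**Figure D2:**
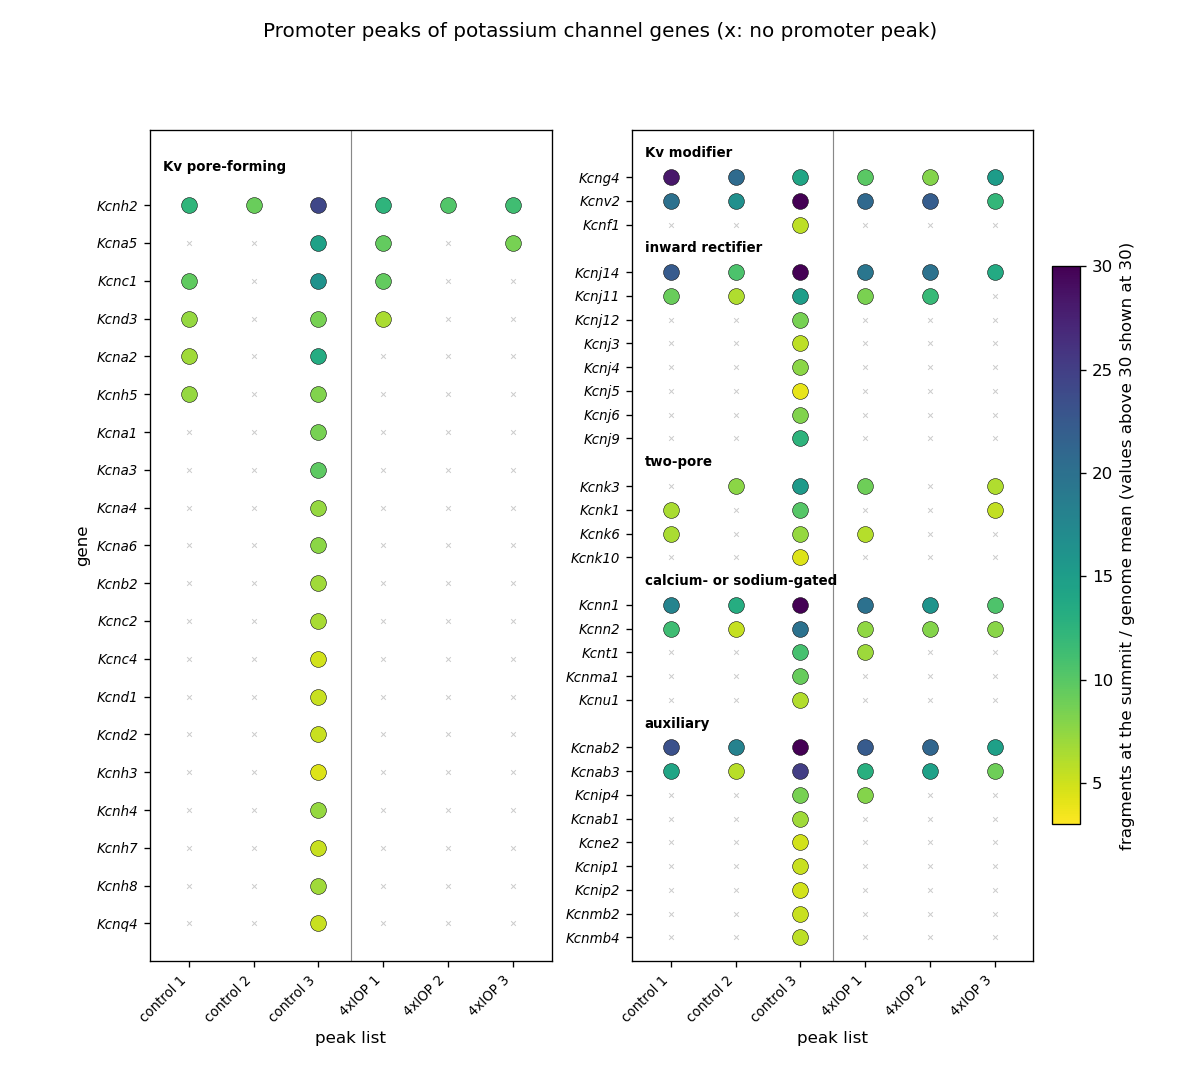
Promoter peaks of 49 of the 52 members with a peak in at least 1 list (y axis, grouped by role) across the 6 lists (x axis). A circle is a peak, its colour the fragments at the summit divided by the genome mean of the list, and a cross is a list without a promoter peak. The control 3 column is filled for all 49 members shown, and 8 rows are filled across all 6 lists.

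The 9 members with a promoter peak in every list covered several roles, and 8 of them are described here: the pore-forming Kcnh2, the modifiers Kcnv2 and Kcng4, the inward rectifier Kcnj14, the calcium-gated small-conductance channels Kcnn1 and Kcnn2, and the cytoplasmic beta subunits Kcnab2 and Kcnab3. Their strength is given as the pile-up, the fragments at the summit of the strongest promoter peak divided by the genome mean of that list, so that lists of different depth can be set side by side. The strongest peak was not the same one in every list for Kcnj14, Kcnh2 and Kcnab3, and no test is given for these 3. All 9 had a lower mean pile-up in 4xIOP than in control and 8 were highest in control replicate 3. Of the 8669 genes marked in all 6 lists, 97.4% were lower in 4xIOP and 97.8% were highest in control replicate 3. Without that list, 4 of the 9 members and 33.8% of all those genes were lower in 4xIOP.

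Kcnv2, the photoreceptor modifier named above (chr19:27322588-27337179, plus strand), had 44, 56 and 105 fragments in control and 42, 47 and 31 in 4xIOP. Its pile-up was 20.1, 16.6 and 42.5 in control and 20.9, 22.1 and 12.1 in 4xIOP. The highest value was in control replicate 3 and the lowest in 4xIOP replicate 3, and the other 4 lists lay between 16.6 and 22.1 (difference -8.02, exact permutation test, two-sided, p = 0.6, n = 3 per group). With 3 lists against 3 this test cannot give a p under 0.1. Without control replicate 3 the difference was 0.0533. Kcnb2, a partner of Kcnv2, had a promoter peak in control replicate 3 alone, with 17 fragments.

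Kcng4, another modifier subunit (chr8:119623854-119635680, minus strand), was the 1 member of the 9 that was not highest in control replicate 3. It had 62, 70 and 35 fragments in control and 20, 17 and 39 in 4xIOP. The pile-up was 28.3, 20.7 and 14.2 in control and 9.95, 8.01 and 15.2 in 4xIOP, and its promoter peaks, 2 in control replicates 1 and 2 and 1 in the other lists, covered 1254, 1160 and 506 bp in control and 251, 240 and 518 bp in 4xIOP. Only 4xIOP replicate 3 and control replicate 3 crossed between the groups, and the 3 highest lists were those whose own name is that of the pressure group, so that by those names the direction would be turned and the groups would not overlap. The difference was -10.0 and did not pass (exact permutation p = 0.2, n = 3 per group), and it was -13.4 without control replicate 3 and -6.39 without control replicate 1. The groups as labelled did not separate in pile-up for any of the 9 members, as against 1% of the 8669 genes that separated with lower values in 4xIOP and 0.0346% with higher values.

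Kcnj14, an inward rectifier found in neurons (chr7:45816460-45824782, minus strand), had pile-ups of 22.4, 10.6 and 32.8 in the control lists and 19.4, 19.8 and 13.6 in 4xIOP. Kcnh2, the pore-forming subunit of the rapid delayed rectifier (chr5:24319589-24351604, minus strand), had 12.3, 9.17 and 24.3 in control and 12.4, 10.4 and 11.3 in 4xIOP. In both genes control replicate 3 was the highest list and control replicate 2 the lowest, with the 4xIOP lists between them.

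Kcnn1 and Kcnn2 encode small-conductance channels that open with intracellular calcium and slow repetitive firing. Kcnn1 had pile-ups of 17.8, 13.3 and 31.2 in the control lists and 19.9, 16.0 and 10.5 in 4xIOP, and Kcnn2 had 11.4, 5.32 and 19.8 in control and 7.46, 8.01 and 7.79 in 4xIOP. Their exact permutation p-values were 0.5 and 0.4. The third family member, Kcnn3, had no promoter peak in any list but a peak in its gene body in 4 of them.

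The beta subunits Kcnab2 and Kcnab3 bind Kcna channels from the cytoplasm, and their peaks were shared with other genes. Kcnab2 had the highest mean fold percentile of the 9 members, 77.4, and pile-ups of 23.3, 18 and 39.3 in the control lists and 22.4, 21.2 and 14.8 in 4xIOP (exact permutation p = 0.4). Its region at chr4:152477718-152478536 covers the outer TSS of Kcnab2, and Nphp4, a ciliary gene that overlaps Kcnab2, has a TSS within the same window. The strongest promoter peak of Kcnab3 lay at the far edge of its window in 4 of the lists, next to Cntrob and Trappc1, and was another peak in control replicate 2 and 4xIOP replicate 1. The region at that edge (chr11:69323269-69323794) was called in every list, with 31, 26 and 62 fragments in control and 38, 31 and 23 in 4xIOP. In such windows the mark of a member and that of its neighbour cannot be told apart. A TSS of another protein-coding gene lay within 2.5 kb for 3 of the 91 members, the third being the sperm channel gene Kcnu1 next to Ash2l.

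**Figure D3:**
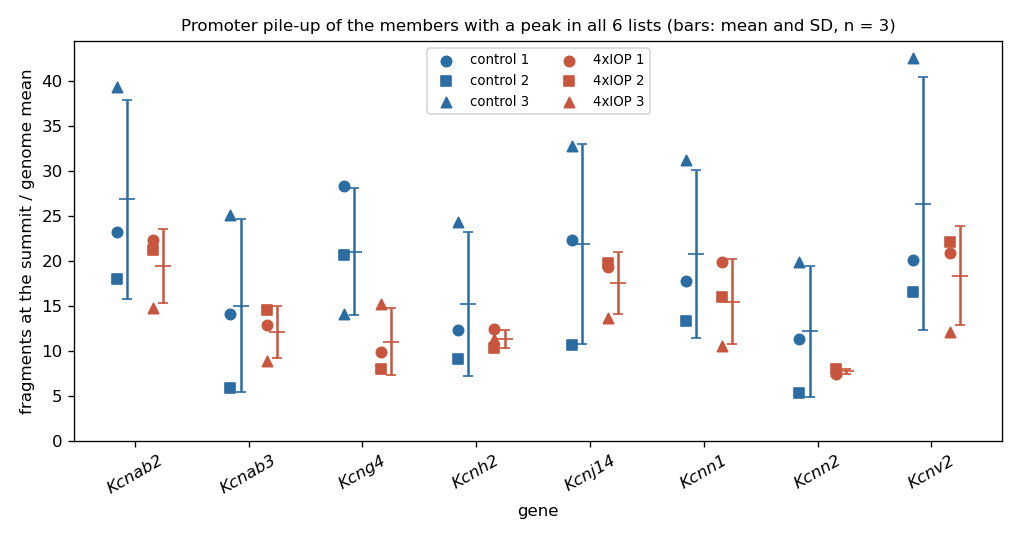
Pile-up (fragments at the summit divided by the genome mean of the list, y axis) of 8 of the 9 members with a promoter peak in all 6 lists (x axis). Points are lists, blue for control and red for 4xIOP, with the replicate given by the symbol, and bars are the mean and SD of 3 lists. Control replicate 3 is the highest point for 7 of these 8, and for Kcng4 it is control replicate 1.

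Of the 12 members marked in 2 to 5 lists, Kcnj11, the pore of the ATP-sensitive channel, came nearest to all 6. It had 20, 21 and 37 fragments in control and 17 and 25 in 4xIOP replicates 1 and 2, and no promoter peak in 4xIOP replicate 3, the shortest list. Kcnk3, an acid-sensitive two-pore channel, was marked in 4 lists, with 26 and 38 fragments in control replicates 2 and 3 and 18 and 16 in 4xIOP replicates 1 and 3. Kcnc1, which encodes a fast-gating channel of rapidly firing neurons, had 21 and 40 fragments in control replicates 1 and 3 and 19 in 4xIOP replicate 1. The A-type channel gene Kcnd3 was called in the same 3 lists with 16, 21 and 13. Kcna5 had 36 fragments in control replicate 3 and 19 and 22 in 4xIOP replicates 1 and 3.

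Kcnk1 and Kcnk6, both two-pore channels, were called in 3 lists each with 12 to 25 fragments. Another 5 members were called in control replicate 3 and 1 other list, and 4 of them are given here. The axonal channel gene Kcna2 had 33 fragments in control replicate 3 and 15 in control replicate 1, and Kcnh5, an ether-a-go-go channel, had 20 and 16 in the same lists. The sodium-gated Kcnt1 had 27 and the Kv4-interacting protein gene Kcnip4 had 21 in control replicate 3, against 14 and 16 in 4xIOP replicate 1. In each of the 12 genes, control replicate 3 had the most fragments.

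The members marked in control replicate 3 alone had low pile-ups but folds in the middle of that list. Their summits held a median of 15 fragments, and the pile-up had a median of 6.08. Their fold over the local background ranked at percentiles of 11.8 to 71.8, with a median of 49.7. All protein-coding genes marked in that list, most of them in other lists too, had medians of 24.3 for the pile-up and 82.6 for the percentile. The weakest 5% of all peaks lay below a pile-up of 5.27 in control replicate 3 and below 5.03 to 6.96 over the 6 lists, and 11 of the 31 members stood above 6.96. A -log10 q-value of at least 5 was reached by 13 of them. With every list held to its 16195 highest peaks, the length of the shortest list, 15, 10 and 23 members were marked in the control lists and 15, 8 and 13 in the 4xIOP lists, so that control replicate 3 stayed the highest list by a smaller margin. Marked members then differed between the groups by -4.40 percentage points, and by -2.49 beyond all protein-coding genes. At a -log10 q-value of at least 5 these values were -9.52 and -3.90, against -14.3 and -9.62 with all peaks.

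Among those alone in control replicate 3, Kcnj9, a subunit of G protein-gated inward rectifiers, had 31 fragments, and its partners Kcnj3 and Kcnj6 had 14 and 20. Among axonal channels, Kcna1 had 21 and Kcna6 had 19. Kcnma1, the large-conductance calcium-gated channel, had 23 fragments at the summit and 2 promoter peaks that covered 1127 bp. Kcnc2 had 16 fragments and Kcnd2, the main A-type channel of dendrites, had 13. The potassium channel interacting proteins Kcnip1 and Kcnip2, which bind Kcnd channels, had 13 and 12. Kcnab1 had 17, and Kcna3, known from T cells and microglia as well as neurons, had 24.

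By role, pore-forming Kv genes made up the largest part of this set. Of the 30, 23 were marked in control replicate 3 and 2 to 6 in the other lists, and 15 were marked in control replicate 3 alone. Inward rectifiers had 8 of 14 in control replicate 3 and 1 or 2 elsewhere, auxiliary subunits 9 of 17 and 2 or 3, calcium- or sodium-gated channels 5 of 8 and 2 or 3, and two-pore channels 4 of 12 and 0 to 2. The modifiers had 3 of 10 marked in control replicate 3 and 2 in every other list.

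The 39 members with no promoter peak in any list included genes known from other cells of the eye or from other organs. Kcnj13 of the pigment epithelium, Kcnj8 of mural cells, Kcnn4 of immune cells, Kcnk13 of microglia, Kcnj1 of kidney, Kcne1 of heart and inner ear, and Kcnk18 of sensory neurons were among them, with Kcnk5, Kcnj15 and Kcna10. Neuronal genes were there too: the M-current subunits Kcnq3 and Kcnq5, the ether-a-go-go channel gene Kcnh1, the inward rectifier Kcnj2, the two-pore channel gene Kcnk9 and the interacting protein gene Kcnip3. A missing peak says only that none was called at this depth, not that the mark was absent.

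The CpG content of promoters, which often goes with this mark, was set beside the calls. It was counted in the 250 bases before and 50 after each TSS, taking the richest window of each gene. Members held a median of 21 CpG and all protein-coding genes 15, so the members' promoters were not poor in CpG. Yet the 9 members marked in all 6 lists had a median of 17, against 25 for all genes marked in all 6. Among genes with 30 or more CpG, 2 of 26 members (7.69%) and 72.7% of 4301 protein-coding genes were marked in all 6 lists, and 11 of 26 members (42.3%) and 5.77% of genes were marked in control replicate 3 alone. With 4 or fewer CpG, 1 of 9 members and 3.27% of genes were marked in all 6. Over the 5 bins of CpG the share of members marked everywhere was 7.69% to 11.8%, but each bin holds only 9 to 26 members, 1 or 2 of them marked everywhere, so that no trend can be read among members. In all genes the share climbed from 3.27% to 72.7%.

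**Figure D4:**
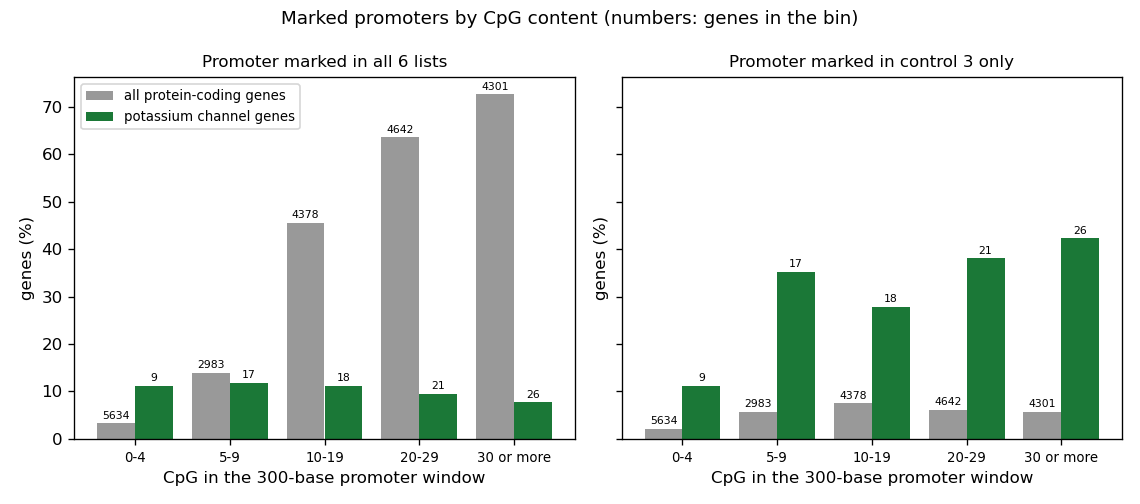
Share of genes (%, y axis) with a promoter marked in all 6 lists (left) or in control replicate 3 alone (right), by the CpG count of the richest 300-base promoter window (x axis), for the members (green) and all protein-coding genes (grey). The numbers above the bars are the genes in each bin. The grey bars on the left climb to 72.7%, and the green ones, each resting on 1 or 2 marked members, lie between 7.69% and 11.8%.

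In the same promoter windows, TGCTGA was found in 6 of the 9 members marked in all 6 lists and in 27.5% of all 91 members, against 24.6% of all protein-coding genes. TAATCC was found in 1 of the 9, in 6.59% of members and in 10.2% of genes. TCAGCACC was found in 1 of the 9, in 7.69% of members and in 2.27% of genes. A match of these letters is not a binding site.

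Outside promoters, the share of members with a peak in the gene body was above that of all genes in 3 lists and below it in 3, while peaks per megabase were fewer in every list. Members with at least 1 such peak numbered 15, 8 and 26 in control and 11, 10 and 6 in 4xIOP, or 17.9% ± 9.97 (SD, n = 3) and 9.89% ± 2.91 (SD, n = 3). In replicate order, the shares were 16.5%, 8.79% and 28.6% for members in control, where all protein-coding genes had 12.4%, 10.5% and 21.1%. The 4xIOP lists had 12.1%, 11% and 6.59% for members and 11.8%, 13.1% and 7.55% for all genes. The difference was -8.06 percentage points for members, and -2.75 without control replicate 3, against -3.82 and -0.613 for all genes. Per megabase of gene body, members held 2.56, 1.43 and 6.96 peaks in control and 1.54, 1.74 and 0.717 in 4xIOP, against 5.24, 4.35 and 12.5 and 4.76, 5.52 and 2.71 over all protein-coding genes. Control replicate 3 was the highest and 4xIOP replicate 3 the lowest list in both. Members were longer genes, with a median length of 29.6 kb against 17.4 kb for all protein-coding genes.

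A peak in the gene body was present in every list for 4 members, 3 of which are described here. Kcnh6, an ether-a-go-go related gene with no promoter peak, held a region 6.33 kb past its TSS (chr11:106013913-106015086). Kcnab1, whose promoter was marked in control replicate 3 alone, held one 94.7 kb inside the gene (chr3:65203691-65204526) that contains the GGATTA printed above. Kcnn1 held one in 5 lists (chr8:70847548-70848599), and in 4xIOP replicate 1 its gene-body peak lay in a neighbouring region. Kcnab2 and Kcnq1 also held several regions each. Of the 156 separate regions at members, 12 were found in all 6 lists (7.69%, against 26.4% of all 39942 regions) and 85 in control replicate 3 alone (54.5%, against 28.6%).

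Found in all 3 control and no 4xIOP lists were 2 of the 156 regions, 1.28%, against 1.05% of all regions, and 0 were found the other way round, against 0.015%. Both lay in gene bodies, outside promoters of protein-coding genes, and they are named because of these values. The TSS of noncoding genes were not considered, so a region called gene body may lie at one of them. The region in Kcnab2 (chr4:152405628-152406462) had 18, 19 and 22 fragments in control replicates 1 to 3, and that in Kcnq1 (chr7:143296814-143297108) had 15, 22 and 27. The share of members is close to that of all regions.

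For the 12 member regions found in all 6 lists, the highest fold in each list was ranked within the list, ranks were turned into normal scores, and limma was fitted over all 10529 such regions. Of the member regions 0 rose and 0 fell in 4xIOP at an adjusted p of 0.05, as did 0% and 0% of all regions. At an unadjusted p under 0.05 there were 0 of the 12, against 3.17% of all regions. The smallest unadjusted p of a member region was 0.0792, with a score difference of 0.59 ± 0.31 (SE), at chr11:106033584-106034425, within Kcnh6 but at the promoter of its neighbour Dcaf7. Next came the region before Kcnab3, at 0.41 ± 0.33, and the Kcnh2 promoter, at 0.33 ± 0.33. The lowest differences were those of Kcng4, -0.25 ± 0.36, the other Kcnh6 region, -0.22 ± 0.39, and Kcnab2, -0.19 ± 0.33 (the adjusted p of limma was 0.9999 for each of the 12). The Kcng4 value was -1.18 ± 0.79 when regions were ranked by recovered fragments, and leaving out single lists gave values between -0.58 (control replicate 3 omitted) and -0.016 (4xIOP replicate 2 omitted). Omitting single lists turned the sign of the Kcnab2 value (0.016 without control replicate 2) and of the other Kcnh6 value (0.12 without 4xIOP replicate 3, and -0.68 without 4xIOP replicate 2). The Kcnh2 value was 0.11 without control replicate 2 and 0.52 without control replicate 3. That of the region before Kcnab3 was 0.21 without 4xIOP replicate 1 and 0.63 without 4xIOP replicate 3. The median difference over the 12 regions was 0.14, and 0.00501 over all regions, and it was -0.08 without control replicate 3.

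**Figure D5:**
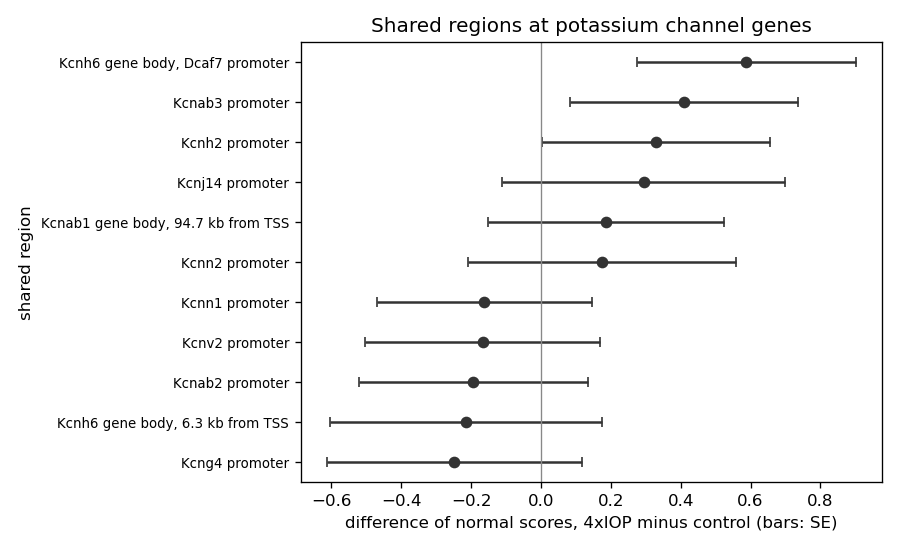
Difference of within-list normal scores, 4xIOP minus control (x axis), with SE bars, for 11 of the 12 member regions found in all 6 lists (y axis). The values run from -0.25 at Kcng4 to 0.59 at the Kcnh6 region that is also the Dcaf7 promoter, and none has an adjusted p under 0.05.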

How the data were processed

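H3K27ac ChIP-seq of 6 mouse retinas was analysed from the peak list of each retina, 3 control and 3 4xIOP, grouped by the labels. The submitters' processing notes name STAR 2.7.8a, MACS2, HOMER, bedtools 2.29.2 and mm10 without saying which served which assay. Peaks were called per sample. The deposited columns are the authors' fold over the local background (a ratio), their -log10 p-value and -log10 q-value, and an integer score made by the authors' caller, which was not used. The lists state no read counts. Fragments at each summit were recovered from fold and p under a Poisson model, within 0.001 on the -log10 p scale for at least 99.99% of peaks of each list. The genome mean was read off as the lowest background present. Fragment length, used for depth and for the length classes, was taken as the length of the shortest peak in each list. Depth and intervals of this kind cover counting error only.

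Protein-coding genes and their TSS came from GENCODE vM21 on GRCm38, and a peak was assigned at an overlap of at least 1 bp. Regions are the merged union of the lists. Scores were tested with limma 3.58.1 and Benjamini-Hochberg adjustment over all 10529 regions found in all 6 lists. Pile-ups of single members were tested with the two-sided exact permutation test. Scripts were checked on simulated data. The labels give single retinas but do not name the animals, so p-values measure the spread between these samples.

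The members, gene lists and tests were chosen with earlier results of these data known. Named genes were members with a role known beforehand in or outside the retina, those marked in 1 group only, the first 5 by fold percentile and by summed length of promoter peaks among members marked in all 6 lists, the 5 with most regions outside promoters, and, in each direction, the 3 regions with the lowest p by limma. Others named in the text, the CpG counts and the sequences before TSS were chosen after values were seen. Sequence of untranslated stretches was left out of those printed. Values of some genes and some sequences are not reported here, and counts include those genes. Alternatives were a -log10 q-value of at least 5, the same number of top peaks in every list, a promoter of 1 kb, an overlap of at least 200 bp, the nearest TSS only, other rankings, classes of fragment length, a replicate block, only the lists whose own name fits the label, and each replicate left out.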

Additional observations from a re-analysis of the deposited data

How the results depend on the processing

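The difference in marked members between the groups kept its sign under all alternatives tried, from -42.9 to -0.183 percentage points, and the second value, without control replicate 3, leaves almost no difference. Leaving out each list gave -22.7 to -0.183 points for marked members, -15.8 to 1.30 points for the difference beyond that of all protein-coding genes, -12.6 to -2.75 points for members with a peak in the gene body, and 9 to 10 members marked throughout. It gave 0 to 2 members marked in all control and no 4xIOP lists, the 2 being Kcna2 and Kcnh5 without control replicate 2. The median score difference over the shared regions ran from -0.082 without control replicate 3 to 0.131 and was -0.081 when regions were ranked by recovered fragments, so its sign rests on these choices and the cause was not tested.

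Members marked in all 6 lists fell from 9 to 5 at a -log10 q-value of at least 5 and to 4 with the same number of top peaks in every list. Regions found in all 6 lists fell from 10529 to 7664 and 8215 in these settings, and those at members from 12 to 7 and 6. With a promoter of 1 kb, an overlap of at least 200 bp or the nearest TSS only, 7 members were marked in all 6 lists. Within the lists of longer fragments (control replicate 1, 4xIOP replicates 1 and 2) 3 members were marked in control and no 4xIOP list, and 1 within those of shorter fragments, where 1.99% and 3.77% of all protein-coding genes were. Between the 2 lists whose own name fits the label, control replicate 3 and 4xIOP replicate 3, marked members differed by -42.9 points (all genes -12.3), members with a gene-body peak by -22.0 points (all genes -13.5), and 39 members were marked in control alone.

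Same-numbered lists did not deviate together (correlations of -0.0208, -0.0571 and -0.146 over the shared regions). With 3 lists per group, such values cannot tell whether equal numbers mark fellow eyes. With the number as a replicate block, differences of means were the same (-14.3, -9.62 and -8.06 points, median score 0.135) and 0 member regions were called. limma called 0 member regions under the alternatives it was fitted with (stricter q, the same number of top peaks, other rankings, the block, the fragment-length class as a term and each list left out), with 0 or 1 at an unadjusted p under 0.05. Lists of called peaks hide signal below the caller's threshold, and 3 lists per group limit every comparison.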

Other observations

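Few markers of retinal cells other than photoreceptors were marked, except those of bipolar cells in control replicate 3. Over all protein-coding genes, 44.6% to 56.9% were marked in a list. Of 5 bipolar cell markers, 2, 1 and 4 were marked in control replicates 1 to 3 and 1 in each 4xIOP list. Of 6 amacrine and horizontal cell markers, 1 or 2 were marked in any list, and of 5 ganglion cell markers, 0 or 1. Of 5 Muller glia markers, 1 or 2 were marked. Rod and cone markers, by contrast, differed little between lists, with 9, 9 and 9 of 12 in control and 8, 9 and 9 in 4xIOP, and 0 of them were marked in control replicate 3 alone.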
